A study of Homo sapiens with 12 samples.

Results

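The genes described here load peptides onto class I molecules of the major histocompatibility complex (MHC), and their mRNA was measured in 4 human cancer cell lines. The 9 members were taken by gene name from the table of gene counts, which holds 57187 genes. They are the heavy chains HLA-B, HLA-C and HLA-E, the light chain B2M, the peptide transporter subunits TAP1 and TAP2, the loading chaperone tapasin (TAPBP), and the immunoproteasome subunits PSMB8 and PSMB9. They are listed by name and not by a measured threshold, but were chosen with earlier results of these data known. All 9 passed the filter on low counts that left 17211 genes for testing.

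The study asked how overexpression of SIVA, or of its D160N mutant, changes cancer cells. SIVA1 encodes a protein known for its part in apoptosis. Poly(A) RNA from cultures of MDA-MB-231 and HCC1954, which are breast cancer lines, and of OVCAR8 and SKOV3, which are ovarian cancer lines, was sequenced with a strand-preserving kit. Each line gave 3 libraries, 1 of parental cells, 1 of SIVA-WT cells and 1 of SIVA-D160N cells, so that there were 12 libraries and each condition had n = 4 lines. The sample labels give the parental cells no treatment, while the study also refers to its controls as empty vector (EV), and both names can apply to the libraries called parental here. SIVA-WT and SIVA-D160N cells had received a linearized expression vector by lipofection and were selected with hygromycin. They were stable transfectants, which the study calls polyclonal for HCC1954, OVCAR8 and SKOV3. For MDA-MB-231 it does not say whether they were polyclonal. If the parental cells carried no vector, transfection and drug selection cannot be told apart from the SIVA insert in a comparison with them, whereas SIVA-WT and SIVA-D160N cells share both steps. The labels of the MDA-MB-231 libraries name only that line, while the study's assays used a luciferase-expressing derivative of it. The labels give no batch, and nothing in them says that a line's libraries came from separate experiments, so each p-value measures the spread among these libraries and lines only.

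Class I molecules show peptides from inside the cell to CD8 T cells. The proteasome cuts proteins into peptides, TAP carries these into the endoplasmic reticulum, and tapasin helps load them onto a heavy chain that is held together with beta-2-microglobulin. Interferons raise the transcription of most of these genes through factors such as IRF1, NLRC5 acts on the promoters of the heavy chains and B2M, and tumor cells are known for losing parts of this pathway.

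The genes lie close together on the genome. In the RefSeq annotation of GRCh38.p14, a release of the GRCh38 build to which the authors aligned, HLA-E is at chr6:30489509-30494194, HLA-C at chr6:31268749-31272092 and HLA-B at chr6:31353875-31357179. TAP2 (chr6:32821831-32838739), PSMB8 (chr6:32840717-32844679), TAP1 (chr6:32845209-32853704) and PSMB9 (chr6:32854192-32859851) follow each other, with 1977, 529 and 487 bases between neighbours. TAPBP is at chr6:33299694-33314078, and B2M stands apart at chr15:44711517-44718145. TAP1 and PSMB9 are transcribed away from each other. The noncoding gene PSMB8-AS1 overlaps 594 bases of PSMB8 and 1292 bases of TAP1, and RGL2 overlaps 1919 bases of TAPBP. Whether the counts were taken by strand is not given in the sources used here, so reads in these stretches may be split between the genes. HLA-B and HLA-C are near-identical copies of one another in part and highly polymorphic, and reads from alleles unlike the reference can be lost or shared, so their levels are uncertain between lines to an extent that was not tested.

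Promoters of members that the results turn on are shown so that the motifs searched there, and their absence from the PSMB9 window, can be read. Windows of 300 bases, 250 before and 50 after the annotated start, were taken from RefSeq (GRCh38.p14). Of the 9 members 8 matched, with 10 windows in all since TAP1 and PSMB8 have 2 starts each, and HLA-E did not match. Capitals mark the core of the interferon-stimulated response element, searched on both strands as GAAANNGAA and, in a search added after the windows were read, as GAANNGAAA, together with the gamma-activated site TTCNNNGAA and the cyclic AMP response element TGACGTCA. The GAAANNGAA motif was found in 5 of the 10 windows and in 8.11% of all 35116 promoter windows of the same length. GAANNGAAA was found in 4 of the 10, against 7.66% of all windows, and TTCNNNGAA in 2 of the 10, against 7.66%. TGACGTCA was found in 0 of the 10, against 1.85%, and the E-box CACGTG, which served as a comparison and is not capitalised, in 0 of the 10, against 7.26%. A window counted once however many matches it held. The sequences run 5′ to 3′ on the strand of the gene.
B2M, chr15:44711267-44711566, + strand: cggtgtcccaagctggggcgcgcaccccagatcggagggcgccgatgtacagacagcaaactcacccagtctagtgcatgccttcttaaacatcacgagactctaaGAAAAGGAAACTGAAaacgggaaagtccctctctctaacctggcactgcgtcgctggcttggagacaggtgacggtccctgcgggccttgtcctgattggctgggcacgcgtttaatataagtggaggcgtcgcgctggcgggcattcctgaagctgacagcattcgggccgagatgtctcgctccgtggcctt
HLA-B, chr6:31357130-31357429, - strand: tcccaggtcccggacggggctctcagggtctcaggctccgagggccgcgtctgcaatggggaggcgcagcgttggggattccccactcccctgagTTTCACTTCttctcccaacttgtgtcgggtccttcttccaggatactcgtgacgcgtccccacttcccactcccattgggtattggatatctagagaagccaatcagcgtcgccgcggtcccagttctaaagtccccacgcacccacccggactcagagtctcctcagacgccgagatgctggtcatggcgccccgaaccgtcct
HLA-C, chr6:31272043-31272342, - strand: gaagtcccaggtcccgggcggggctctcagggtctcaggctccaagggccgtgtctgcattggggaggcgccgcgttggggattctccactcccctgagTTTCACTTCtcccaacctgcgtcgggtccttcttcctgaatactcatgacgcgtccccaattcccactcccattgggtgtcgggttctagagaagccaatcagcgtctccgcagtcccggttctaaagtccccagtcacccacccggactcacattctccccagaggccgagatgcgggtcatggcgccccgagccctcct
TAP1, first start, chr6:32853655-32853954, - strand: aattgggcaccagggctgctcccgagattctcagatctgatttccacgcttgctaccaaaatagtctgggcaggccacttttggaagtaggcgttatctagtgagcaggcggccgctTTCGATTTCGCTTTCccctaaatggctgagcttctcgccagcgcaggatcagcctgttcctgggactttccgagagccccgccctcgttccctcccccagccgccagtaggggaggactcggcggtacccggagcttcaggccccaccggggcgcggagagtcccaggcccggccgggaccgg
PSMB9, chr6:32853942-32854241, + strand: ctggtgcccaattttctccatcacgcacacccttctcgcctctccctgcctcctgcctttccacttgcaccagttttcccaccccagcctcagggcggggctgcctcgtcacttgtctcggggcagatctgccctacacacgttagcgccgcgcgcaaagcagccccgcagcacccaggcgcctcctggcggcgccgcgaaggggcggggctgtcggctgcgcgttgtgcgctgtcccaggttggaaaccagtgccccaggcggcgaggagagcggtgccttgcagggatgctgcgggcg
TAPBP, chr6:33314029-33314328, - strand: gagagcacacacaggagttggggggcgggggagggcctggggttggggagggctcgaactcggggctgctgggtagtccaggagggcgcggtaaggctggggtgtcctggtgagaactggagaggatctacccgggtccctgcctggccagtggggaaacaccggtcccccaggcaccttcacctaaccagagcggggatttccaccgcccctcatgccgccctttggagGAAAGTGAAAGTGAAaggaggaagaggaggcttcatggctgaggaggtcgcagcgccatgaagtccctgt
In the B2M window GAAANNGAA occurred at 2 overlapping places, from -144 to -136 and from -138 to -130, counted from the start as +1. In the first TAP1 window it occurred at 2 overlapping places on the opposite strand, from -133 to -125 and from -127 to -119, and the TAPBP window held it at -20 to -12 and at -14 to -6. HLA-B and HLA-C each held GAANNGAAA on the opposite strand, at -155 to -147 and at -151 to -143, and the windows of the pair were identical at 269 of 304 aligned columns (88.5%). The PSMB9 window held none of the letters searched and shared 13 bases with the TAP1 window. The first PSMB8 window, not printed here, also held none, while the second PSMB8 window held 3 matches. The matches of the first TAP1 window lay outside the PSMB9 window but within the 487 bases between these genes. For PSMB9 the absence therefore holds for its window only. A match is a run of letters and is not a measurement of binding.

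Total counts per library ran from 35791455 to 45890398, and no pair of libraries held identical counts. A gene with 0 counts is limited to between 0.0654 and 0.0838 CPM (counts scaled to 1 common library size), taking 3 counts as the limit, which covers counting error only. The members took between 0.0701% and 0.25% of a library's counts. SIVA1, the gene on the vector, was higher in the SIVA-WT and SIVA-D160N library of every line than in its parental library, and the HCC1954 parental library had 0 SIVA1 counts. ERBB2, the receptor known to be amplified in HCC1954 and SKOV3, had 5736 to 12170 CPM there and 32.1 to 78.1 CPM in the others. PAX8, a marker of ovarian origin, had 61.1 to 243 CPM in the ovarian lines and 1.56 to 3.43 CPM in the breast lines. Of 6 leukocyte markers, LAPTM5 had 151 to 196 CPM in MDA-MB-231 and at most 1.22 CPM elsewhere, PTPRC (CD45), which defines leukocytes, had 0 counts in every MDA-MB-231 library and at most 0.627 CPM elsewhere, and CD3E had at most 0.0856 CPM in any library. Their summed level was 151 to 196 CPM in MDA-MB-231 and 0.296 to 3.39 CPM in the other lines, and its part in the results was not tested.

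The lines differed widely in these genes. HCC1954 had the highest mean of all 9 members, and MDA-MB-231 had the lowest mean of 6 of them. The range between lines went from 1.42-fold for HLA-E to 179-fold for PSMB9, taken between line means of log2 CPM with a prior count of 2, which lowers the range of sparse genes. The fitted difference of PSMB9 between HCC1954 and MDA-MB-231, which has few counts, was larger, with MDA-MB-231 at -7.66 ± 0.27 (log2, SE) relative to HCC1954, beside a range of 7.49. All 9 members differed among the 4 lines in edgeR's quasi-likelihood F test at a false discovery rate (FDR) under 0.05, but so did 93.9% of all genes tested, so that the count says little about the members. The median range of the members was 3.15 on the log2 scale, beside 1.60 for all genes tested. When each member's lines were put in order of level, 19 of the 27 adjacent pairs differed at an FDR under 0.05, with p-values adjusted over all genes and all 6 pairs of lines, and for all genes tested the share was 49.6%. The levels below are CPM with TMM-adjusted library sizes, as mean ± SD over the 3 libraries of a line, and the SD includes the difference between conditions. In bulk RNA, fewer cells that express a gene and less of its mRNA per cell cannot be told apart.

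**Figure D1:**
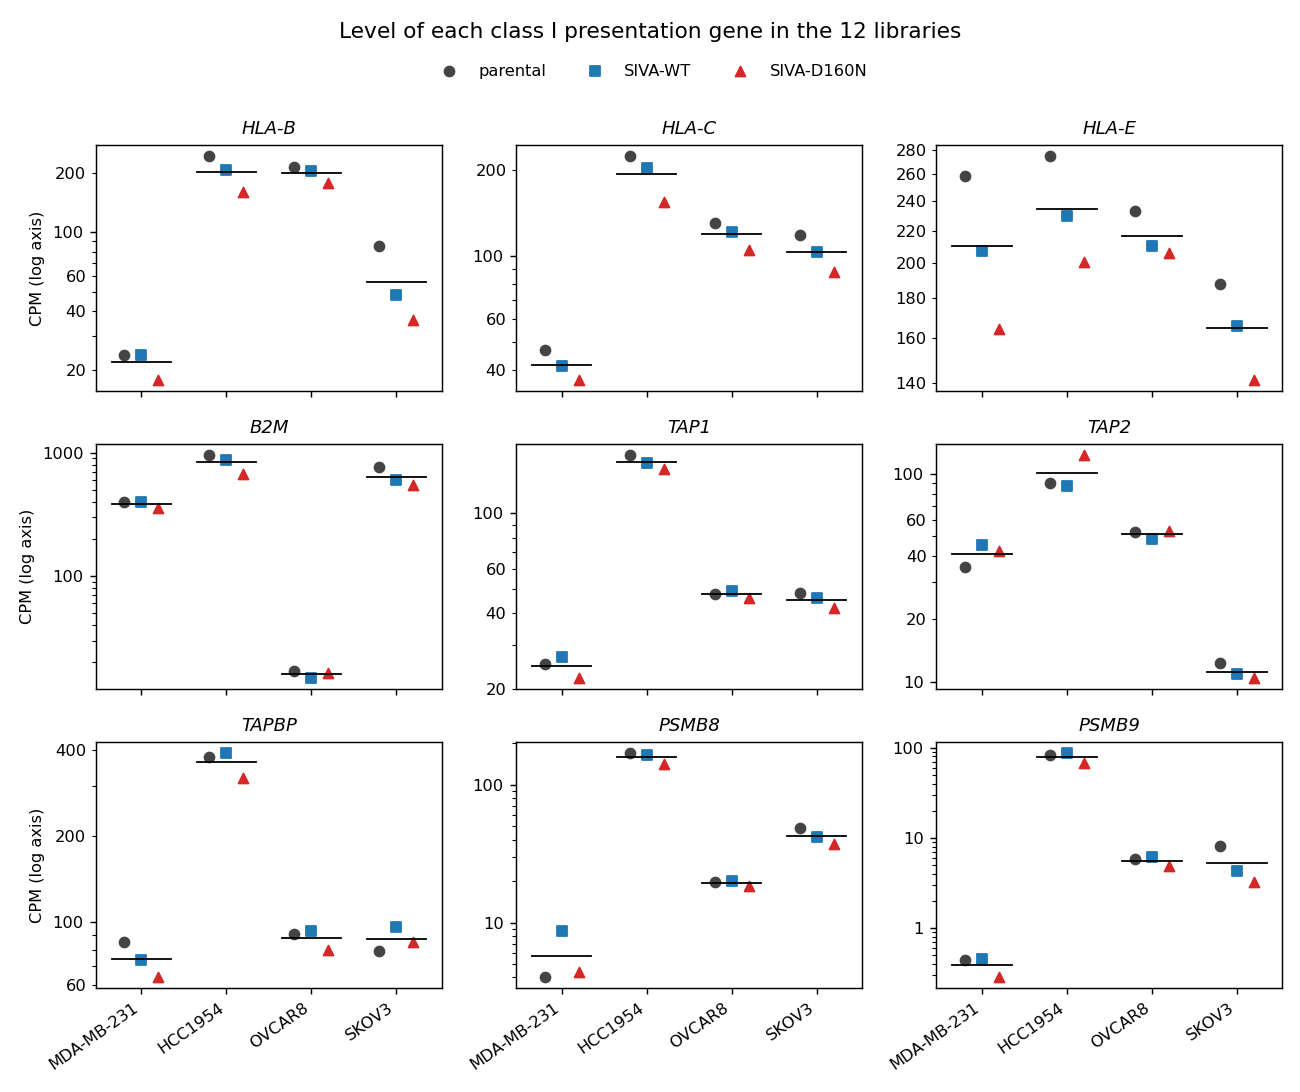
CPM (log axis) of each member in each library, by line, with circles for parental, squares for SIVA-WT and triangles for SIVA-D160N, and a bar at the mean of the 3 libraries. HCC1954 had the highest mean of every member, B2M in OVCAR8 was at most 17.0 CPM in its 3 libraries, and PSMB9 in MDA-MB-231 was at most 0.455 CPM.

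Among the heavy chains, HLA-B and HLA-C present peptides to CD8 T cells, and HLA-E, which binds leader peptides of other class I chains, is read by receptors of natural killer cells. In parental, SIVA-WT and SIVA-D160N cells in turn, HLA-B had 23.9, 24.0 and 17.9 CPM in MDA-MB-231, 242, 207 and 160 CPM in HCC1954, 215, 204 and 179 CPM in OVCAR8, and 84.9, 48.0 and 36.0 CPM in SKOV3. HCC1954 (203 ± 41.4 CPM) and OVCAR8 (199 ± 18.7 CPM) overlapped and did not differ beyond their spread (FDR = 0.984), OVCAR8 was 3.72-fold above SKOV3 (56.3 ± 25.5 CPM; FDR = 1.92e-06), and SKOV3 was 2.46-fold above MDA-MB-231 (21.9 ± 3.47 CPM; FDR = 3.73e-05), all by edgeR with n = 3 libraries. The SIVA-D160N library was the lowest of each line, and the share of all genes tested for which this held was not counted.

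HLA-C in the same order had 46.7, 41.1 and 36.9 CPM in MDA-MB-231, 223, 202 and 154 CPM in HCC1954, 130.1, 121 and 105 CPM in OVCAR8, and 118, 103 and 87.8 CPM in SKOV3. In each of the 4 lines the parental library was the highest and the SIVA-D160N library the lowest. How many of all genes tested had this order in every line was not counted. HCC1954 was 1.61-fold above OVCAR8 (edgeR FDR = 2.91e-05), OVCAR8 was 1.16-fold above SKOV3, which just passed (edgeR FDR = 0.0466) although their libraries overlapped, and SKOV3 was 2.47-fold above MDA-MB-231 (edgeR FDR = 2.10e-07).

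HLA-E had the narrowest range of the 9 members. It had 259, 207 and 164 CPM in MDA-MB-231, 274, 230.1 and 200.4 CPM in HCC1954, 234, 210.4 and 206 CPM in OVCAR8, and 188, 166 and 141 CPM in SKOV3, so that again the parental library was the highest and the SIVA-D160N library the lowest in every line. HCC1954, OVCAR8 and MDA-MB-231 did not differ beyond their spread from their neighbours in the order (edgeR FDR = 0.364 and 0.569), and SKOV3 was 1.26-fold below MDA-MB-231 (edgeR FDR = 0.00992). Only 6.14% of all genes tested had a smaller range between lines. Without SKOV3 the 3 other lines no longer differed (edgeR FDR = 0.407). Per kilobase of transcript, HLA-E made up 64.4% to 68.9% of the 3 heavy chains' summed CPM in MDA-MB-231, the line with the least HLA-B and HLA-C, and 25.3% to 40.8% in the other lines.

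B2M encodes the light chain that class I heavy chains generally need to reach the cell surface. It had 399, 396 and 357 CPM in MDA-MB-231, 963, 881 and 667 CPM in HCC1954, 17.0, 14.9 and 16.5 CPM in OVCAR8, and 761, 606 and 544 CPM in SKOV3. OVCAR8 lay far below the others in all 3 of its libraries, with 566 to 630 counts each, where the other lines had at least 14693. MDA-MB-231, the next line in the order, was 23.8-fold above it (edgeR FDR = 6.02e-10), and HCC1954 was 51.2-fold above it. Between the other lines the steps were smaller. SKOV3 was 1.64-fold above MDA-MB-231 (edgeR FDR = 0.000232), and HCC1954 was 1.31-fold above SKOV3 (edgeR FDR = 0.0113).

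The low B2M of OVCAR8 came with heavy chain mRNA at the level of the other lines. Per kilobase, the summed heavy chains had 265 to 316 CPM in OVCAR8, within the range of 100 to 410 CPM of the other 9 libraries, whereas B2M had 15.8 to 18.02 CPM per kilobase in OVCAR8 and 378.5 to 1021 elsewhere. The ratio of B2M to the summed heavy chains was 0.0537 to 0.0659 in OVCAR8 and 2.49 to 4.25 in the other lines. In MDA-MB-231 the ratio was 2.87 in parental, 3.40 in SIVA-WT and 3.79 in SIVA-D160N cells, and in HCC1954 it was 2.49 to 2.62. Transcript lengths came from 1 canonical transcript per gene, so a ratio between genes depends on that choice. The mix of heavy chains differed by line and HLA-E has the longest transcript of the 3, so the order of lines with close ratios, such as MDA-MB-231 and HCC1954, depends on it too.

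**Figure D2:**
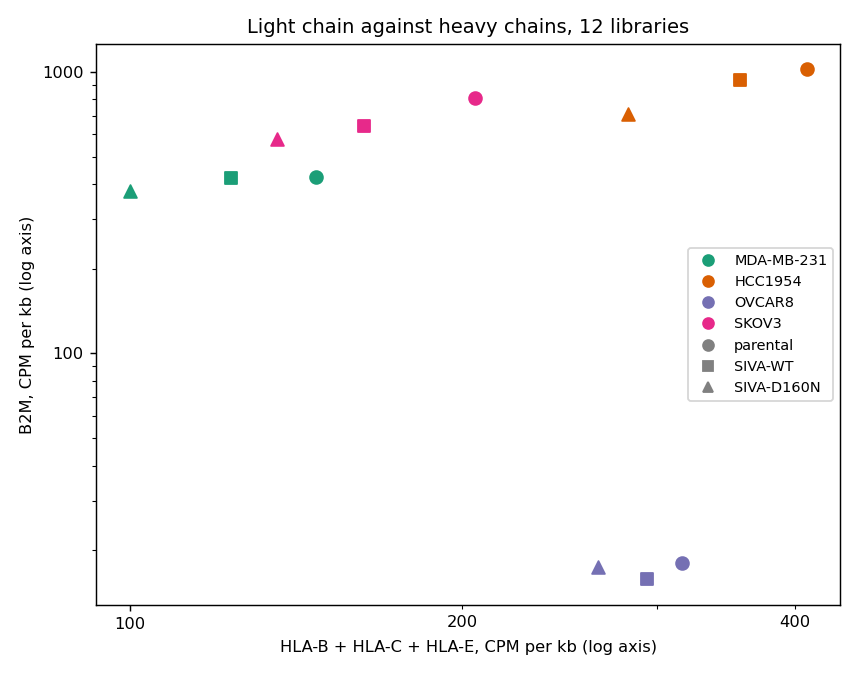
CPM per kilobase of B2M (vertical, log axis) against the sum of HLA-B, HLA-C and HLA-E (horizontal, log axis), 1 point per library, with color for the line and shape for the condition. The 3 OVCAR8 libraries lie at 15.8 to 18.02 on the vertical axis and the other 9 at 378.5 to 1021, while they overlap on the horizontal axis.

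TAP1 and TAP2 form the transporter as a heterodimer. TAP1 had 25.2, 26.8 and 22.1 CPM in MDA-MB-231, 171, 159 and 151 CPM in HCC1954, 47.6, 49.1 and 46.3 CPM in OVCAR8, and 48.1, 46.1 and 42.0 CPM in SKOV3. HCC1954 was 3.36-fold above OVCAR8 (edgeR FDR = 2.44e-08), OVCAR8 and SKOV3 did not differ beyond their spread (edgeR FDR = 0.486), and SKOV3 was 1.84-fold above MDA-MB-231 (edgeR FDR = 4.95e-06).

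TAP2 had another order of lines. It had 35.8, 45.4 and 42.6 CPM in MDA-MB-231, 90.5, 87.6 and 123 CPM in HCC1954, 52.4, 48.8 and 53.1 CPM in OVCAR8, and 12.3, 10.9 and 10.4 CPM in SKOV3. HCC1954 was 1.94-fold above OVCAR8 (edgeR FDR = 9.33e-05), and OVCAR8 was 1.25-fold above MDA-MB-231, which did not pass (edgeR FDR = 0.062). SKOV3 was the lowest line, 3.68-fold below MDA-MB-231 (edgeR FDR = 6.50e-07), although its TAP1 was above that of MDA-MB-231. The ratio of TAP1 to TAP2 per kilobase was accordingly 8.23 to 8.92 in SKOV3, against 2.57 to 3.98 in HCC1954, 1.83 to 2.12 in OVCAR8 and 1.09 to 1.48 in MDA-MB-231.

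TAPBP bridges the transporter and the heavy chain. It had 85.3, 73.5 and 64.3 CPM in MDA-MB-231, 377, 390 and 320 CPM in HCC1954, 90.9, 93.0 and 79.8 CPM in OVCAR8, and 78.8, 96.1 and 85.4 CPM in SKOV3. HCC1954 stood 4.12-fold above OVCAR8 (edgeR FDR = 4.15e-08), and the 3 other lines did not differ beyond their spread from their neighbours (edgeR FDR = 0.918 and 0.0806). Without HCC1954 the 3 remaining lines no longer differed in TAPBP (edgeR FDR = 0.17).

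PSMB8 and PSMB9 are the interferon-inducible catalytic subunits that take the places of PSMB5 and PSMB6 in the immunoproteasome. PSMB8 had 4.05, 8.64 and 4.40 CPM in MDA-MB-231, 170, 164 and 142 CPM in HCC1954, 19.8, 20.1 and 18.4 CPM in OVCAR8, and 48.9, 41.5 and 37.1 CPM in SKOV3. The 4 lines did not overlap and every step in the order passed: HCC1954 was 3.73-fold above SKOV3 (edgeR FDR = 6.87e-06), SKOV3 was 2.18-fold above OVCAR8 (edgeR FDR = 0.000382) and OVCAR8 was 3.50-fold above MDA-MB-231 (edgeR FDR = 1.60e-05).

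PSMB9 varied the most between lines of all members. It had 0.442, 0.455 and 0.292 CPM in MDA-MB-231, which rest on 20, 18 and 12 counts, and 83.7, 86.9 and 67.3 CPM in HCC1954. OVCAR8 had 5.87, 6.10 and 4.89 CPM, and SKOV3 had 8.11, 4.33 and 3.25 CPM. HCC1954 was 14.1-fold above OVCAR8 (edgeR FDR = 4.18e-08), OVCAR8 and SKOV3 overlapped and did not differ beyond their spread (edgeR FDR = 0.475), and SKOV3 was 12.7-fold above MDA-MB-231 (edgeR FDR = 3.44e-07). Of all genes tested, 94.8% had a smaller range between lines.

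The constitutive subunits PSMB5, PSMB6 and PSMB7 varied less, with ranges between lines of 2.37-fold, 1.81-fold and 2.32-fold. PSMB5 had line means of 145 to 343 CPM, PSMB6 of 111 to 200 CPM and PSMB7 of 192 to 447 CPM, each highest in OVCAR8. The ratio of PSMB8 to PSMB5 per kilobase was 0.584 to 0.780 in HCC1954, 0.211 to 0.376 in SKOV3, 0.0470 to 0.0607 in OVCAR8 and 0.0160 to 0.0324 in MDA-MB-231. The ratio of PSMB9 to PSMB6 was 0.341 to 0.441 in HCC1954 and 0.00113 to 0.00213 in MDA-MB-231, with OVCAR8 (0.0203 to 0.0273) and SKOV3 (0.0215 to 0.0724) between them. PSMB9 and TAP1, which share their promoter region, did not keep 1 ratio across lines, as PSMB9 per kilobase was 1.18 to 1.45 times TAP1 in HCC1954 and 0.0349 to 0.0463 times TAP1 in MDA-MB-231.

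**Figure D3:**
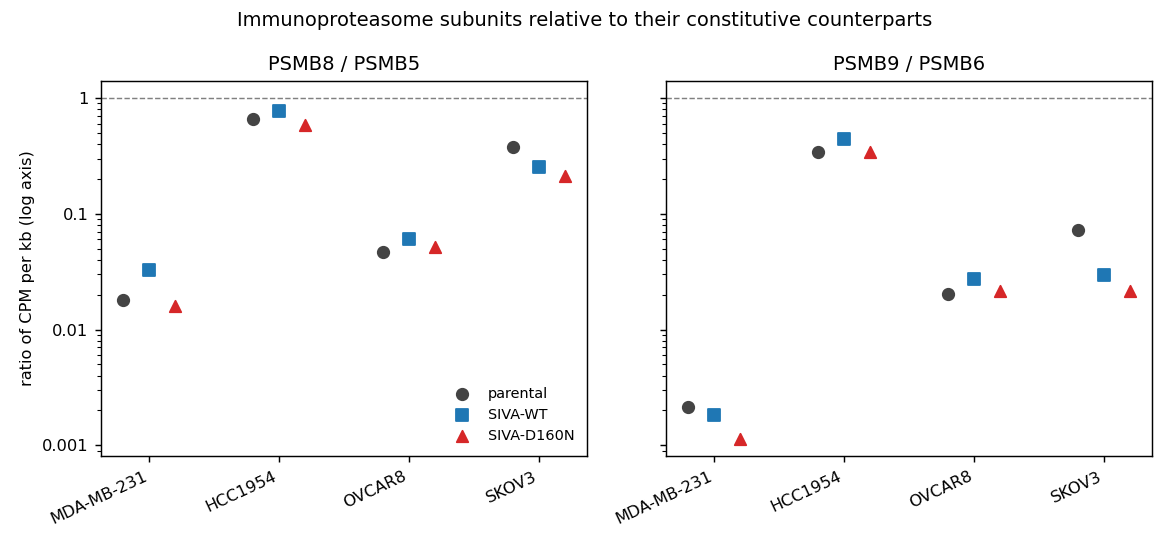
Ratio of CPM per kilobase (log axis) of PSMB8 to PSMB5 (left) and of PSMB9 to PSMB6 (right) in each library, with a dashed line at a ratio of 1. Every library lies below 1, HCC1954 is the highest line in both panels, and MDA-MB-231 is the lowest, at 0.00113 to 0.00213 for PSMB9.

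The other genes of the pathway were taken from lists. Of 13 genes of peptide processing and loading, 12 were tested and 11 of these differed among the lines, where 93.9% of all genes tested did. Their median range was 2.09 on the log2 scale, beside 1.60 for all genes tested. HLA-F, a nonclassical heavy chain, had 38.6 to 53.0 CPM in SKOV3, 17.3 to 19.5 CPM in OVCAR8 and 5.37 to 8.85 CPM in HCC1954, while MDA-MB-231 had 0, 4 and 0 counts. ERAP2, an aminopeptidase that trims peptides in the endoplasmic reticulum, had 118 ± 15.6 CPM in SKOV3 and at most 9.93 CPM in any library of the other lines. PSMB10, the remaining immunoproteasome subunit, followed PSMB9 in being highest in HCC1954 (21.5 ± 4.19 CPM), with 3.07 ± 0.527 CPM in SKOV3 and about 1 CPM in MDA-MB-231 (1.08 ± 0.0794) and OVCAR8 (1.05 ± 0.0980). TAPBPL, a tapasin-related peptide editor, had 19.1 ± 6.07 CPM in HCC1954, 5.86 ± 0.0808 CPM in OVCAR8 and 1.78 ± 0.556 and 1.76 ± 0.205 CPM in MDA-MB-231 and SKOV3.

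Of 18 regulators, all were tested and 17 differed among the lines, where 93.9% of all genes tested did. Their median range was 1.48 on the log2 scale, beside 1.60 for all genes tested. NLRC5, a transactivator of class I genes, was highest in SKOV3 (40.1 ± 3.25 CPM), followed by HCC1954 (20.8 ± 0.521 CPM), OVCAR8 (10.1 ± 1.44 CPM) and MDA-MB-231 (2.05 ± 0.332 CPM), and each step passed (edgeR FDR = 3.12e-05, 1.70e-05 and 7.11e-08). IRF1, a transcription factor of the interferon response, had 96.8 ± 3.76 CPM in HCC1954, 6.10-fold above SKOV3 at 15.9 ± 1.40 CPM (edgeR FDR = 4.01e-08), and 10.7 ± 1.94 and 10.4 ± 1.26 CPM in MDA-MB-231 and OVCAR8. CIITA, the transactivator of class II genes, had 4.80 to 12.5 CPM in HCC1954, 0.850 to 1.46 CPM in MDA-MB-231, and 0 to 3 counts in each OVCAR8 and SKOV3 library. HCC1954 was thus the line with the most IRF1 as well as the highest mean of each member (for HLA-B and HLA-E not beyond the spread from OVCAR8), whereas the most NLRC5 was in SKOV3, where HLA-B was 3.72-fold below OVCAR8.

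**Figure D4:**
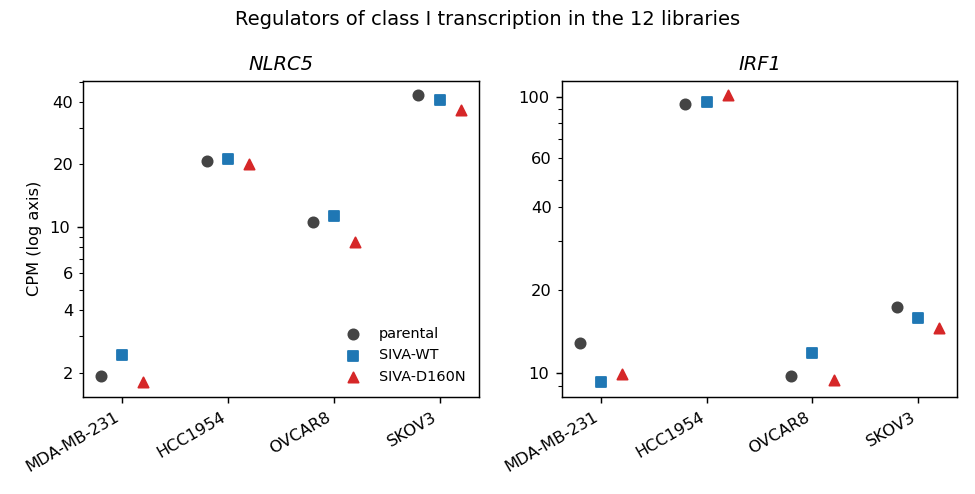
CPM (log axis) of NLRC5 and IRF1 in each library, by line, with circles for parental, squares for SIVA-WT and triangles for SIVA-D160N. NLRC5 was highest in SKOV3 (36.6 to 42.9 CPM) and IRF1 was highest in HCC1954 (94.0 to 101 CPM).

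SIVA-D160N cells were compared with parental cells to ask what the mutant changes. The members were mostly lower in SIVA-D160N cells, by small amounts: 8 of the 9 fitted log2 fold changes were below 0, with a median of -0.31 beside -0.009 for all genes tested. None passed the study's pair of thresholds, an FDR under 0.05 with a log2 fold change at or beyond 1.5 in either direction, which 0.00581% of all genes tested passed (1 gene). The study's own fit, described with these thresholds, reported many more genes for SIVA-D160N against controls than passed here. The reason for that gap was not tested. At an unadjusted p under 0.05, 5 members were lower and 0 were higher, where 7.68% of all genes tested were lower. These were the 3 heavy chains, B2M and PSMB9. The log2 ratio was below 0 in all 4 lines for 6 members, the same 5 and TAP1, and for 9.06% of all genes tested. With total counts in place of TMM library sizes this held for 4 members, since the OVCAR8 ratio of B2M and of TAP1 lay close to 0 (-0.04 each).

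HLA-B had a log2 fold change of -0.64 ± 0.14 (SE), or 0.642-fold (edgeR FDR = 0.148). Its ratio of SIVA-D160N to parental was 0.424 in SKOV3, 0.660 in HCC1954, 0.751 in MDA-MB-231 and 0.830 in OVCAR8, so that it was lower in 4 of 4 lines. HLA-C had a log2 fold change of -0.40 ± 0.07 (edgeR FDR = 0.128), with ratios of 0.743, 0.691, 0.790 and 0.806 in the same order of lines. HLA-E had a log2 fold change of -0.42 ± 0.09 (edgeR FDR = 0.136), with ratios of 0.753, 0.731, 0.634 and 0.881. The 3 heavy chains were thus 0.642-fold to 0.756-fold in the fit, lower in every line, and short of the FDR threshold.

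B2M had a log2 fold change of -0.31 ± 0.10 (edgeR FDR = 0.239). Its ratios were 0.693 in HCC1954 and 0.714 in SKOV3, but 0.895 in MDA-MB-231 and 0.970 in OVCAR8, the line with little B2M. PSMB9 had a log2 fold change of -0.62 ± 0.19 (edgeR FDR = 0.211), with ratios of 0.405 in SKOV3, 0.694 in MDA-MB-231 (from 20 counts to 12), 0.803 in HCC1954 and 0.835 in OVCAR8. PSMB8 had -0.19 ± 0.17 (edgeR FDR = 0.656), TAP1 -0.15 ± 0.08 (edgeR FDR = 0.392), TAPBP -0.18 ± 0.09 (edgeR FDR = 0.407) and TAP2 0.13 ± 0.12 (edgeR FDR = 0.663). TAP2 was the only member with a fitted value above 0, with ratios of 0.846 in SKOV3, 1.01 in OVCAR8, 1.19 in MDA-MB-231 and 1.36 in HCC1954. An exact sign-flip permutation test over 4 lines cannot go below a two-sided p of 0.125, which every member with all 4 lines on the same side reached. Without the SKOV3 libraries the fitted value was -0.43 for HLA-B and -0.32 for PSMB9. Of 8 epithelial, mesenchymal and lineage markers, 0 passed an FDR under 0.05 by edgeR in the same contrast. Where 7.68% of all genes tested were lower at an unadjusted p under 0.05, 2 of the 8 markers were. These were the keratin KRT19 (-0.77 ± 0.17), with ratios of 0.439 in HCC1954, 0.712 in MDA-MB-231 and 0.754 in SKOV3 and at most 1 count per library in OVCAR8, and ERBB2 (-0.44 ± 0.16), with 0.490 in SKOV3, 0.622 in HCC1954, 0.891 in OVCAR8 and 1.11 in MDA-MB-231. In HCC1954 the mesenchymal marker VIM had a ratio of 3.03 and the keratins KRT8 and KRT18 had 1.33 and 1.45, while VIM had 0.823 to 0.967 in the other lines. The part of these markers in the members' values was not tested.

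How many members passed an FDR under 0.05 depended on the tool and on the filter, and no member reached a log2 fold change of 1.5 with any of them. DESeq2 put 3 members under 0.05, HLA-C (FDR = 0.000189), HLA-E (FDR = 0.00169) and HLA-B (FDR = 0.00803), all lower, and 1.98% of all genes tested. Limma-voom put 1 member under 0.05, HLA-C (FDR = 0.0478), and 0.389% of all genes tested. EdgeR on all 34909 genes with at least 1 count put 4 under 0.05, HLA-B, HLA-C, HLA-E and PSMB9 (FDR = 0.00113, 0.0339, 0.02 and 0.0411), and 1.58% of those genes.

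SIVA-WT cells were compared with the same parental libraries to show what the wild-type protein changes, so this contrast is not independent of the last one. The members' median log2 fold change was -0.15, beside -0.005 for all genes tested. None passed the study's thresholds, which 0.00% of all genes tested passed (0 genes by edgeR, 1 by DESeq2 and 1 by limma-voom, no member among them). At an unadjusted p under 0.05, only HLA-E was lower (-0.23 ± 0.09, edgeR FDR = 1), where 1.07% of all genes tested were lower. Its ratios of SIVA-WT to parental were 0.901 in OVCAR8, 0.883 in SKOV3, 0.839 in HCC1954 and 0.800 in MDA-MB-231. HLA-B had -0.30 ± 0.14, HLA-C -0.15 ± 0.07 and B2M -0.17 ± 0.10. The log2 ratio was below 0 in all 4 lines for 3 members, HLA-C, HLA-E and B2M, and for 4.92% of all genes tested, and with total counts as library sizes for HLA-C and HLA-E only. PSMB8 had a fitted 0.18 ± 0.17 that rested on MDA-MB-231, and was -0.09 without that line's libraries.

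SIVA-D160N was compared with SIVA-WT because both carry a vector. The members' median log2 fold change was -0.22, beside -0.003 for all genes tested, and 0 members passed the study's thresholds, as did 0.00% of all genes (0 genes by edgeR, 3 by DESeq2 and 1 by limma-voom). At an unadjusted p under 0.05, 4 members were lower, HLA-B (-0.34 ± 0.14), HLA-C (-0.25 ± 0.07), HLA-E (-0.20 ± 0.09) and TAPBP (-0.22 ± 0.09), with FDR values of 0.719 to 0.725 by edgeR, where 4.30% of all genes tested were lower. The log2 ratio was below 0 in all 4 lines for 7 members, all but B2M and TAP2, and for 11.7% of all genes tested. PSMB8 (-0.36 ± 0.17) and PSMB9 (-0.38 ± 0.19) did not pass at an unadjusted p under 0.05. The SIVA-WT libraries stand in both this contrast and the last one, so the values are given side by side and not counted together.

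**Figure D5:**
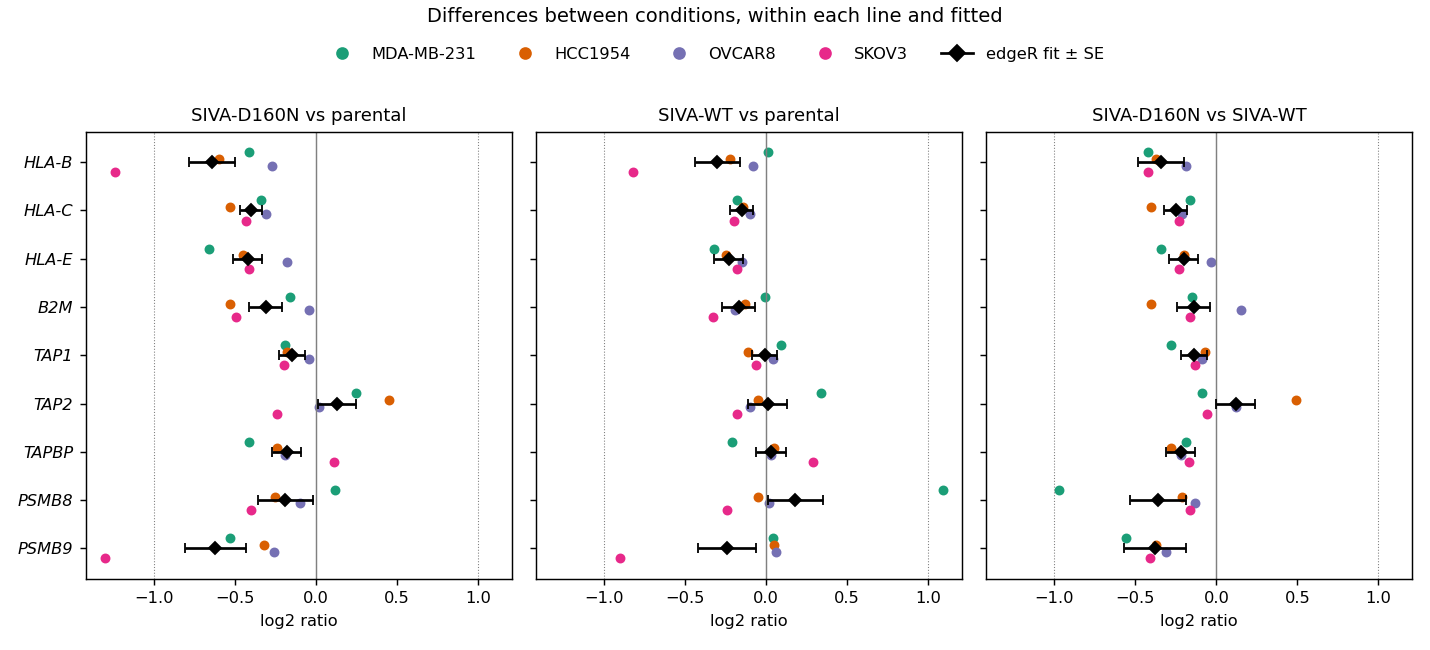
Log2 ratio of each member for SIVA-D160N vs parental (left), SIVA-WT vs parental (middle) and SIVA-D160N vs SIVA-WT (right), with a colored point per line and the edgeR fit ± SE as a black diamond. In the left panel 8 of the 9 diamonds lie below 0, with HLA-B and PSMB9 of SKOV3 at -1.24 and -1.30, and dotted lines mark 2-fold.

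Within a line there was 1 library per condition and therefore no test. In SKOV3, 2 members were at least 2-fold lower in SIVA-D160N than in parental cells, HLA-B (84.9 to 36.0 CPM) and PSMB9 (8.11 to 3.25 CPM), as were 6.05% of all genes tested in that line. No member was 2-fold lower or higher in that contrast in MDA-MB-231, HCC1954 or OVCAR8. In MDA-MB-231, PSMB8 was 2.12-fold higher in SIVA-WT than in parental cells (183 counts to 342), the only member past 2-fold in that contrast, where 2.48% of all genes tested were 2-fold higher. SIVA-D160N cells of that line had 181 PSMB8 counts, close to the parental library. OVCAR8 had the smallest differences between SIVA-D160N and parental cells, with members' ratios of -0.31 to 0.02 on the log2 scale, compared with -1.30 to 0.11 in SKOV3. Among all genes tested, OVCAR8 likewise had the smallest shares, with 1.55% at least 2-fold lower and 1.96% at least 2-fold higher. In the other lines 4.30% to 6.05% were lower and 2.52% to 4.73% were higher by that rule.

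Breast and ovarian lines were not shown to respond differently. In the test of the difference of SIVA-D160N vs parental between the tissues, 0 of 9 members had an unadjusted p under 0.05, where 5.06% of all genes tested did. The lowest FDR was that of TAP2 (edgeR FDR = 0.999), with mean log2 ratios of 0.35 in the breast lines and -0.11 in the ovarian lines. With 2 lines per tissue the standard errors of the differences ran from 0.18 to 0.38 on the log2 scale, and the TAP2 difference of -0.46 ± 0.23 (ovarian minus breast) did not pass.

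The related lists had medians closer to 0 than the 9 members (-0.31) and their heavy chains (-0.42) in SIVA-D160N vs parental. The processing list itself holds the heavy chain HLA-F (-0.42 ± 0.21) and PSMB10 (-0.30 ± 0.16), and had 8 tested genes below 0 and 4 above. Of the 12 tested processing and loading genes, 0 passed an FDR under 0.05 by edgeR. At an unadjusted p under 0.05, where 7.68% of all genes tested were lower, 2 were lower, PSME1 (-0.22 ± 0.09) and TAPBPL (-0.45 ± 0.19). The list median was -0.07. The constitutive subunits PSMB5, PSMB6 and PSMB7 had 0.09 ± 0.12, 0.01 ± 0.14 and -0.03 ± 0.10. Of the 18 regulators, 0 passed an FDR under 0.05. Beside the same 7.68% of all genes tested, 3 were lower at an unadjusted p under 0.05, STAT2 (-0.22 ± 0.10), IFNGR2 (-0.31 ± 0.10) and CIITA (-0.91 ± 0.31). The list median was -0.11. NLRC5 had -0.18 ± 0.11 and IRF1 -0.14 ± 0.12 (edgeR FDR = 0.487 and 0.61). In SIVA-D160N vs SIVA-WT, NLRC5 had -0.25 ± 0.11 (edgeR FDR = 0.725).

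The members were also compared with one another over the 12 libraries, as a description. After the mean of each line was taken off, the median Pearson correlation of the 36 pairs of members was 0.552, with a range of -0.757 for TAP2 and TAPBP to 0.967 for HLA-B and PSMB9. HLA-B, HLA-C, HLA-E and B2M correlated at 0.769 to 0.891 with each other. TAP2 stood out, at -0.479 to 0.034 with the heavy chains, B2M, TAP1 and PSMB9. The points share lines, conditions and library sizes, so these correlations carry no test. The genes whose deviations were most like the mean of the members included TIGD4 (r = 0.964), CHAC1 (r = 0.941), DLG3 and SEMA4C (r = 0.938 each). For levels across the lines, the most alike were CDC37L1-AS1 (r = 0.991), TSPAN13 (r = 0.991), TMC5 (r = 0.987), ZFP62 (r = 0.986) and OSTF1 (r = 0.985), over n = 12 libraries that form 4 clusters by line. CDC37L1-AS1 is named as an antisense gene, and its reads may not be separable from those of its partner where strand was not used.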

How the data were processed

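Per the labels and the study's methods, the authors made TruSeq Stranded mRNA libraries from Trizol RNA, checked reads with FastQC, aligned them to GRCh38 with STAR 2.5.3a and deposited raw gene counts, without normalization. The annotation release and whether counts used strand are not given in the sources used here. A second deposited table of CPM was not used. Every column matched a library, and 0 columns were left over.

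EdgeR 4.0.16 in R 4.3.3 was used on these counts (TMM, filterByExpr by condition, quasi-likelihood test), with terms for line and condition over all 12 libraries, and Benjamini-Hochberg adjustment over 17211 genes. Libraries of the same line deviated together from their condition means (r = 0.929 to 0.968). Between lines r was -0.433 to -0.191, and taking off the condition means by itself pushes these values below 0. The line was the block, since its libraries share a source. DESeq2 1.42.0, limma-voom (limma 3.58.1), other normalization, filter, thresholds, no block and libraries left out were alternatives. Log2 ratios within a line used a prior count of 2. Per-kilobase values used the canonical transcript of GENCODE (v44lift37, lifted to an earlier genome build) for each gene, and positions and promoters RefSeq GRCh38.p14. Figures used matplotlib 3.10.9 in Python 3.11.15.

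The members and lists were chosen with earlier results of these data known. All 9 members are named, with the constitutive subunits, NLRC5, IRF1, list genes past an FDR of 0.05 in a condition contrast (0 genes) or among the 6 with the widest range between lines, and the 5 genes most like the members by correlation. The values of some genes that these rules chose are not reported here. PSME1, STAT2, IFNGR2 and the markers were picked for naming once their values were known.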

Additional observations from a re-analysis of the deposited data

Results flagged for a closer look

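Within each condition and each contrast, the 4 lines were checked for a value far from the other 3, by Dixon's test at 95%. Of 54 sets, 6 were past the limit, where chance gives about 2.7. The sets share lines and libraries and are not independent, so whether 6 is more than chance gives cannot be judged. B2M in SIVA-D160N cells of OVCAR8 stood at 4.05 (log2 CPM), far below the other lines, with a gap of 0.831 of the range. The low level was not particular to SIVA-D160N cells, since B2M of OVCAR8 was 14.9 to 17.0 CPM over its 3 libraries. The parental and SIVA-WT sets were not past the limit. TAPBP of HCC1954 stood above the other lines at 8.56 in parental and 8.61 in SIVA-WT cells (log2 CPM). The log2 ratio of PSMB8 in SIVA-D160N vs SIVA-WT was -0.97 in MDA-MB-231, where the other lines had -0.21 to -0.13. The log2 ratio of PSMB9 in SIVA-WT vs parental was -0.90 in SKOV3, where the other lines had 0.04 to 0.06. TAP1 in SIVA-D160N vs parental had -0.04 in OVCAR8 and -0.20 to -0.18 in the other lines. Of the 27 pairs of a member and a contrast, none had both breast lines on 1 side of 0 and both ovarian lines on the other.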

How the results depend on the processing

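No member passed the study's thresholds in any of the 3 condition contrasts under any alternative that kept both thresholds, with 0 to 0 members when lines or libraries were left out. With an unadjusted p under 0.05 alone, 5 members passed in SIVA-D160N vs parental, 1 in SIVA-WT vs parental and 4 in SIVA-D160N vs SIVA-WT. The 3 libraries of a line share their source, and fitting without this pairing (no replicate block) changed no call, while the log2 fold change of PSMB8 in SIVA-WT vs parental went from 0.18 to -0.05. When lines or libraries were left out, the number of members that differed among lines ran from 8 to 9, and that of adjacent pairs from 12 to 20, with 12 without MDA-MB-231 and 12 without HCC1954, where fewer pairs exist. Requiring an absolute log2 difference of at least 1 left 12 adjacent pairs. The sign of small changes in SIVA-WT vs parental turned when lines or libraries were left out, with ranges of -0.11 to 0.09 for TAP2, -0.09 to 0.32 for PSMB8, -0.05 to 0.03 for TAP1, -0.05 to 0.12 for TAPBP and -0.38 to 0.06 for PSMB9, as did TAP2 in SIVA-D160N vs SIVA-WT (-0.01 to 0.22). Other values that turned were 0.01 for TAP1 and -0.04 for TAPBP without SKOV3, 0.01 and 0.02 for TAP1 and -0.04 for TAP2 without 1 HCC1954 library, and -0.07 for TAP2 without the parental MDA-MB-231 library. In SIVA-D160N vs parental no member's sign turned, and HLA-B ran from -0.76 to -0.43, HLA-C from -0.43 to -0.36, HLA-E from -0.50 to -0.35, B2M from -0.40 to -0.23 and PSMB9 from -0.77 to -0.32. With total counts as library size, 30 of the levels and ratios moved beyond their error. The cause of these changes was not tested. PSMB9 in MDA-MB-231 rests on 12 to 20 counts, which limits its ratios there.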
